A study of Mus musculus with 2 samples.

Results

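Broad hypersensitive domains are stretches of the mouse genome over which DNase I cut thymus chromatin densely, without a break over at least 1500 bp in at least 1 of 2 libraries. They were chosen by width. In each library, listed bases with a false discovery rate of the local cut rate of at most 0.001 were merged into runs, and autosomal runs of 1500 bp or more were kept if they overlapped a run of 1000 bp or more in the other library. The 1697 kept runs, 1266 of them in replicate 1 and 431 in replicate 2, formed 1268 separate domains once overlapping runs were joined. All autosomal runs numbered 184856, of which 118986 were in replicate 1 and 65870 in replicate 2. The domains covered 2.55 Mb.

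Thymus of B6CASTF1/J females at 25 days of age gave 2 libraries, labelled Female 05 (replicate 1) and Female 06 (replicate 2). The labels number them as biological replicates but give both the same donor record, so separate animals and repeat samples of 1 animal cannot be told apart, and the spread between libraries may be technical. B6CASTF1/J is a hybrid of the C57BL/6J and CAST strains, and no genotype or treatment other than this is given. Both libraries form 1 group, so no condition was contrasted and no test over samples was possible. The read depth is not given in the sources used here. In tissue of mixed cells, fewer accessible cells of a type and less access per cell cannot be told apart. Of 10 T cell and thymocyte markers, 10 had their gene start in a run of both libraries, and so did 1 of 5 thymic epithelium markers (Aire) and 0 of 24 markers of B, myeloid, stromal, erythroid, liver, muscle and neuron cells. In longer lists of the same cell types some starts were open in both libraries: 5 of 15 B cell genes, 4 of 18 myeloid and dendritic, 5 of 20 thymic epithelium, 3 of 17 stroma and endothelium, 2 of 12 erythroid, 3 of 16 muscle, 2 of 15 neuron and 0 of 16 liver genes. Over all autosomal coding genes, 9478 of 20807 starts were open in both libraries, a larger share than in each of these longer lists. Vpreb1, a surrogate light chain gene of B-cell precursors, had 997 bp in replicate 1 and 603 bp in replicate 2 at its start. The part of such cells in the domains was not tested.

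DNase I cuts DNA where nucleosomes are absent or unstable, and so marks promoters and enhancers. Most sites are about as short as the gap left by a displaced nucleosome, whereas promoters in CpG islands, which are rich in GC and keep their CpG pairs because they are seldom methylated, can be accessible over a longer stretch. Within open DNA a bound protein can shield a short stretch from cutting, which is called a footprint. In the thymus, T-cell precursors rearrange their receptor genes and are selected under the control of factors such as SATB1, TCF-1, LEF-1, RUNX1 and the E proteins.

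The 200 bases of a domain that held the most footprint bases found in both libraries are printed for 8 domains, because they show what kinds of sequence lie inside these regions: a receptor gene promoter, CpG-rich promoters, a stretch inside a gene and DNA that holds no coding gene start. They are the plus strand of the mm10 reference (GRCm38, RefSeq), not the alleles of the hybrid, and capitals mark bases inside a footprint of both libraries. The Cd8b1 window is chr6:71322593-71322792 and ends just past the Cd8b1 start. The Satb1 window is chr17:51832567-51832766, with its centre 624 bp downstream of the gene start. The Klf10 window is chr15:38300583-38300782, centred 24 bp downstream of the start. The Zfp36l1 window is chr12:80112978-80113177, centred 64 bp upstream of the start. The Cdk6 window is chr5:3344439-3344638, centred 3053 bp downstream of the start. The Bcl2l1 window is chr2:152831185-152831384, centred 444 bp downstream of the start. The window near Zfp36l2 is chr17:84163274-84163473 and the one between Ets2 and Psmg1 is chr16:95867070-95867269.
Cd8b1: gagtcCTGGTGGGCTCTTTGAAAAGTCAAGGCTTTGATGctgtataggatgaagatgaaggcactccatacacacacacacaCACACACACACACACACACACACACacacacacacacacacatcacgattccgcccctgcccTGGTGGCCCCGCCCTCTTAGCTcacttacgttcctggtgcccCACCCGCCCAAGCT
Satb1: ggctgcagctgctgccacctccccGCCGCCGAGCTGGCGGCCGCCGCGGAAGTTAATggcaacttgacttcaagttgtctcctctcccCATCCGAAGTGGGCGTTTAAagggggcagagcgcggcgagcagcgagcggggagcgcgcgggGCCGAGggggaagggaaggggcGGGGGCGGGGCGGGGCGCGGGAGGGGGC
Klf10: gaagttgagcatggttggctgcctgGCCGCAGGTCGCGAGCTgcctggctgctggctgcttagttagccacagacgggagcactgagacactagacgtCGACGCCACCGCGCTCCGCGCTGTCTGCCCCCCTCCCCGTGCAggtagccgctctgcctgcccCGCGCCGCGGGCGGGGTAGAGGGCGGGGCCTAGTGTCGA
Zfp36l1: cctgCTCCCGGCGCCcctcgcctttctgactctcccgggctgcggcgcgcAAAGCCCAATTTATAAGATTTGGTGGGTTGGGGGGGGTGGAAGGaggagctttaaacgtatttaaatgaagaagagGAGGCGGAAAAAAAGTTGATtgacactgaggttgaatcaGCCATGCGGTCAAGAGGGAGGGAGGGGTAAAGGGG
Cdk6: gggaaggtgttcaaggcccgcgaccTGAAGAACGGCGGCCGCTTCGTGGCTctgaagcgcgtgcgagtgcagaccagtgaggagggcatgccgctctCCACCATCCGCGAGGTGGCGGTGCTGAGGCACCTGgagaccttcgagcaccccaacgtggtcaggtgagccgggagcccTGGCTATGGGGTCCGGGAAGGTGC
Bcl2l1: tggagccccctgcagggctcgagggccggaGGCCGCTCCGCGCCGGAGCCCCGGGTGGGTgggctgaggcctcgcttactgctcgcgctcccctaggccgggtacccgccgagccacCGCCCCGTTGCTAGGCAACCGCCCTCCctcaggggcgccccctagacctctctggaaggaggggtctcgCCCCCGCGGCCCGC
Near Zfp36l2: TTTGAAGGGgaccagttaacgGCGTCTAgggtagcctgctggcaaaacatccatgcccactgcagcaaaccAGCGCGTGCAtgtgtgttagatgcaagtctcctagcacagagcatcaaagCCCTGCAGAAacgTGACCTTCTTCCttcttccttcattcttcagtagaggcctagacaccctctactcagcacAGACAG
Between Ets2 and Psmg1: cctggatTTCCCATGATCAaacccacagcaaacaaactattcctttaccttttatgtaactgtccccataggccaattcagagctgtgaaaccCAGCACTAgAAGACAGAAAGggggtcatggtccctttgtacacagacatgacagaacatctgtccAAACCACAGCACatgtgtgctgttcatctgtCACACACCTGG

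The windows differed in composition. The Satb1, Klf10, Cdk6 and Bcl2l1 windows held 23, 20, 17 and 21 CpG pairs, the Zfp36l1 window held 10 and the Cd8b1 window 5. The 2 windows without a gene start held 5 CpG pairs near Zfp36l2 and 0 between Ets2 and Psmg1. The letters GGGCGG, the core bound by SP and KLF zinc-finger factors, were found on either strand 3 times in the Cd8b1 window, 3 times in the Satb1 window and 2 times each in the Klf10 and Bcl2l1 windows, and 2 of these matches lay in capitals in each of the 4. The Cd8b1 window also held CTTTGA, the core read by TCF-1 and LEF-1, 2 times, both in capitals, and a run of CA repeats that was itself partly in capitals. The window between Ets2 and Psmg1 held 1 TGTGGT, the RUNX core, and 1 CACCTG, an E-box, both in capitals.

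The domains were far wider than the typical run and were wider in replicate 1. Their widest run had a median of 1858.5 bp in replicate 1 (interquartile range 1645 to 2172 bp, longest 5926 bp) and 1372 bp in replicate 2 (1198 to 1585 bp, longest 3518 bp). All autosomal runs of replicate 1 had a median of 169 bp, and those of replicate 2 had one of 152 bp. The joined domains had a median width of 1861.5 bp. The replicate 1 run was the wider one in 1260 of 1268 domains, with a median ratio of 1.34. Width is what the rule used, so this direction is partly built in. In 838 domains only replicate 1 reached 1500 bp and was wider by construction, and in 2 domains only replicate 2 did. A width of 2000 bp was reached by 468 domains in replicate 1 and 87 in replicate 2, and a width of 3000 bp by 71 and 5. Across the 1268 domains the widths of the libraries had a Spearman rho of 0.41, a description over regions that were selected on both widths.

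**Figure D1:**
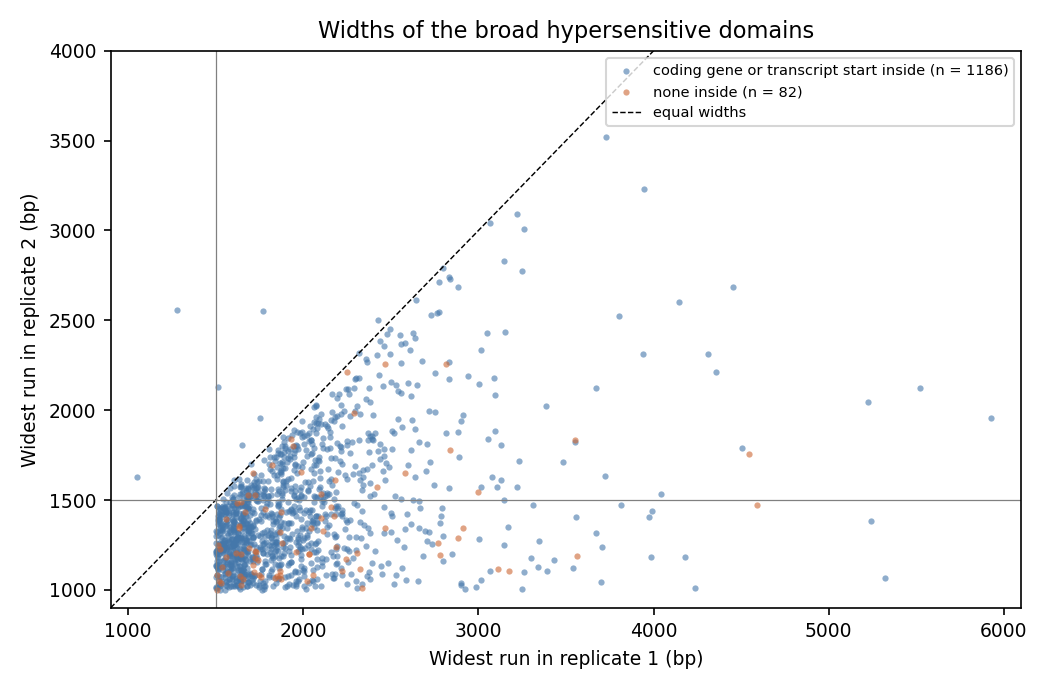
Width of the widest run of each of the 1268 broad domains in replicate 1 (x axis, bp) and replicate 2 (y axis, bp); each point is 1 domain, grey lines mark 1500 bp, and orange points hold no coding gene or transcript start. Nearly all points, 1260 of 1268, lie below the line of equal widths. For 838 of these this follows from the rule, because only replicate 1 reached 1500 bp.

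The domains were continuous in replicate 1 and often broken in replicate 2. A single replicate 1 run crossed 1261 domains, whereas in replicate 2 a single run crossed 538 and several runs crossed 730. Replicate 2 runs nevertheless covered a median of 81.0% of a domain's length, and 65.6% at the 10th percentile. Every break counted, however short. In the Cdk6 domain, replicate 2 runs ended 1723 and 2615 bp downstream of the gene start, and the next ones began at 1725 and 2618 bp. A count of runs therefore does not give the length of the breaks. Both libraries reached 1500 bp in 428 domains, replicate 1 alone in 838 and replicate 2 alone in 2. The rule left out 962 replicate 1 runs of 1500 bp or more, whose widest partner in replicate 2 had a median width of 723.5 bp and was absent for 23, and 14 replicate 2 runs. At the threshold itself, replicate 1 runs of 1500 bp held the starts of Tspoap1, of Sharpin and Maf1, and of H6pd, whose replicate 2 partners of 363, 992 and 838 bp left them out. The Tbl2 domain, at 1500 and 1070 bp, was just inside. Replicate 1 runs 1 bp short of the threshold held the starts of Vat1 and Rnd2 and of Ap3m1 and Adk. In replicate 2, runs of 1500 bp held the starts of Slc38a1 and of Rbmxl1 and Slc10a7, and runs of 1498 bp those of Sipa1l1 and Sephs1.

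The 20 widest domains reached 5926 bp in replicate 1 and 3518 bp in replicate 2. Widths are given as the widest run in replicate 1 and then in replicate 2. First by mean width came the domain of Cd8b1, which encodes the beta chain of the CD8 coreceptor, at 5926 and 1954 bp (chr6:71321183-71327108). It also holds the start of Smyd1, a SET and MYND domain gene first known from muscle. In replicate 2 this domain was broken into 8 runs, and the run that held the Cd8b1 start itself measured 715 bp. Some of the 8 runs spanned only a few bp, such as that from 4244 to 4247 bp downstream of the Cd8b1 start. Marcks, a protein kinase C substrate that binds actin and membrane, followed at 5520 and 2126 bp (chr10:37136009-37141528). Satb1, the chromatin organiser of thymocytes, had 5222 and 2045 bp (chr17:51830385-51835606). The replicate 2 runs covered 60.2% of the Cd8b1 domain, 83.6% of the Marcks domain and 45.2% of the Satb1 domain.

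The KLF-family genes Klf10 and Klf13 had 3945 and 3229 bp and 3260 and 3006 bp. Ing1, whose PHD finger reads methylated histone H3, had 4147 and 2600 bp, and Tgif1, a homeobox repressor of TGF-beta signalling, had 5244 and 1384 bp. Kmt2e, a SET-domain gene of the KMT2 family, had 3220 and 3094 bp. Tfap4, a basic helix-loop-helix factor, had 3068 and 3040 bp. These last widths differed little between the libraries, and a single replicate 2 run covered 96.1% of the Kmt2e domain and 99.1% of the Tfap4 domain. Phf12, a PHD-finger corepressor subunit, had 3940 and 2313 bp, and Maz, a zinc-finger factor, had 4506 and 1791 bp.

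Zfp36l1, which drives decay of AU-rich mRNAs, had 5321 bp in replicate 1 and 1064 bp in replicate 2, the largest difference in widest run among all domains. That replicate 2 run lay at -789 to 274 bp from the gene start, and the next one lay at -1568 to -795 bp. The size of the difference thus depended on a break of a few bp. Mex3b, a KH-domain RNA-binding gene, had 4454 and 2684 bp, and Zc3h4, which restrains noncoding transcription, had 3805 and 2526 bp. Cdk6, a kinase partner of D-type cyclins, had 4359 and 2212 bp. Anp32a, an acidic nuclear phosphoprotein gene, had 4310 and 2312 bp. Of the 20 widest domains, 16 held the 5 prime end of a gene model and 4 did not. Among these 4, the domain at transcript starts of Ppp2r3d, a phosphatase 2A regulatory subunit, had 3726 and 3518 bp, the widest replicate 2 run of all. The domain at 6 internal starts of Nr3c1, the glucocorticoid receptor gene, had 3249 and 2777 bp.

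**Figure D2:**
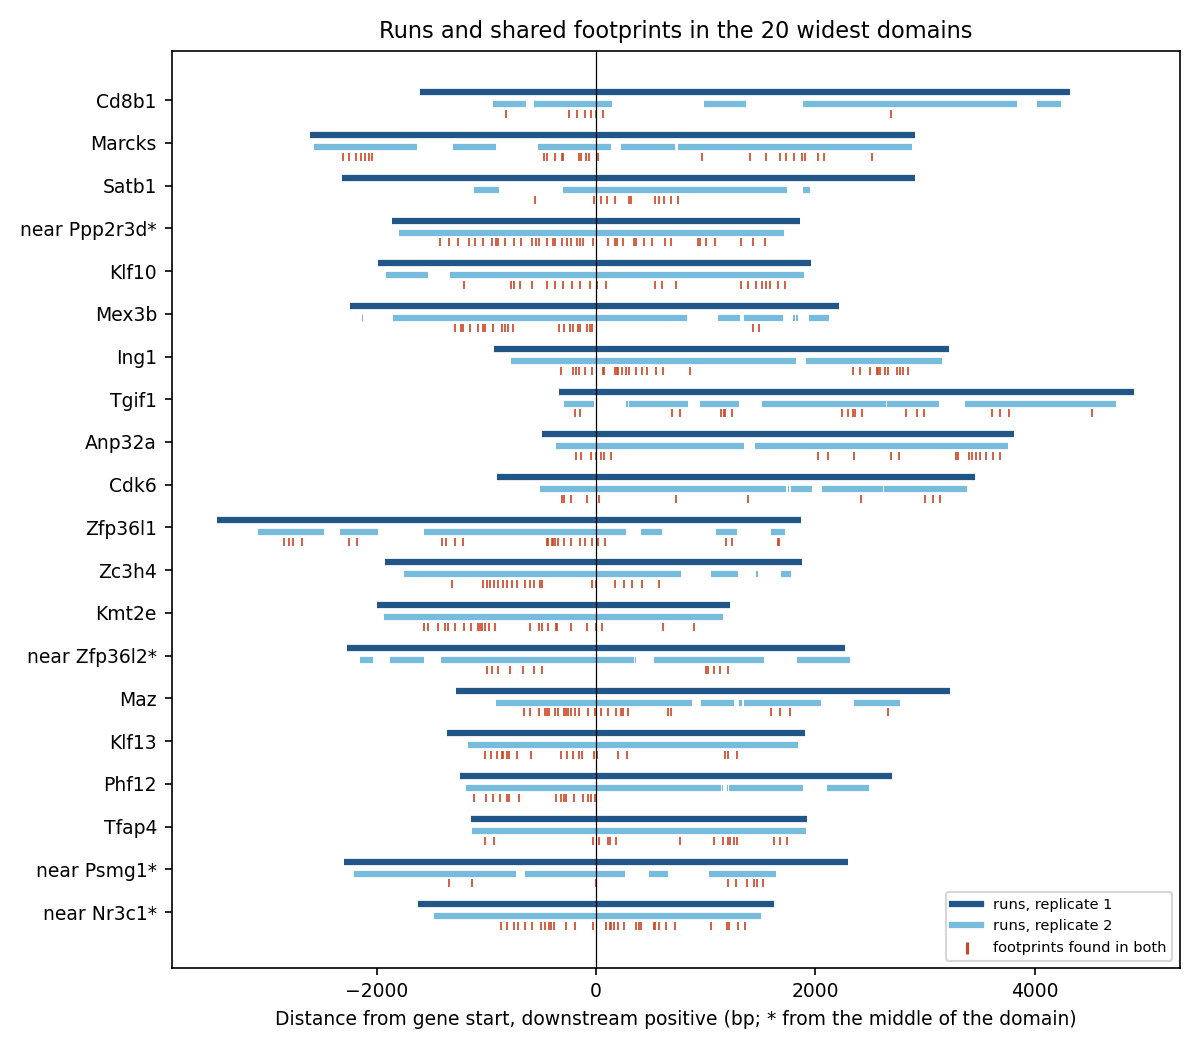
Runs of replicate 1 (dark blue) and replicate 2 (light blue) and replicate 1 footprints also found in replicate 2 (red ticks) in the 20 widest domains, widest at the top, by distance from the gene start (x axis, bp, downstream positive; an asterisk marks domains measured from their middle). Replicate 2 runs are broken in most rows and single at Ppp2r3d, Kmt2e, Klf13 and Tfap4.

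Gene starts lay inside most domains. Of 1268 domains, 1078 (85.0%) held the 5 prime end of at least 1 protein-coding gene, against 77.8% of 2706 mid-width loci, whose widest run was 1000 to under 1500 bp, and 43.6% of 6985 narrow loci of 500 to under 1000 bp. With every annotated coding transcript start counted, the shares were 93.4%, 86.6% and 50.8%. Wider regions can hold more starts by size alone, and the order changed in a central window of equal length and in starts per kb. Neither measure settles the part of size. A start away from the middle of a wide domain falls outside the window, and the rate per kb falls as a locus with 1 start widens. A start lay within 1 kb of the midpoint in 83.0% of the domains. A start lay in the central 500 bp of 45.03% of the domains, against 59.5% of the mid-width loci and 40.6% of the narrow loci. Gene starts per kb were 0.508 in the domains, 0.760 in the mid-width loci and 0.643 in the narrow loci. Among the domains, quartiles of mean width held starts at 81.7%, 86.8%, 85.4% and 86.1% from narrow to wide.

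**Figure D3:**
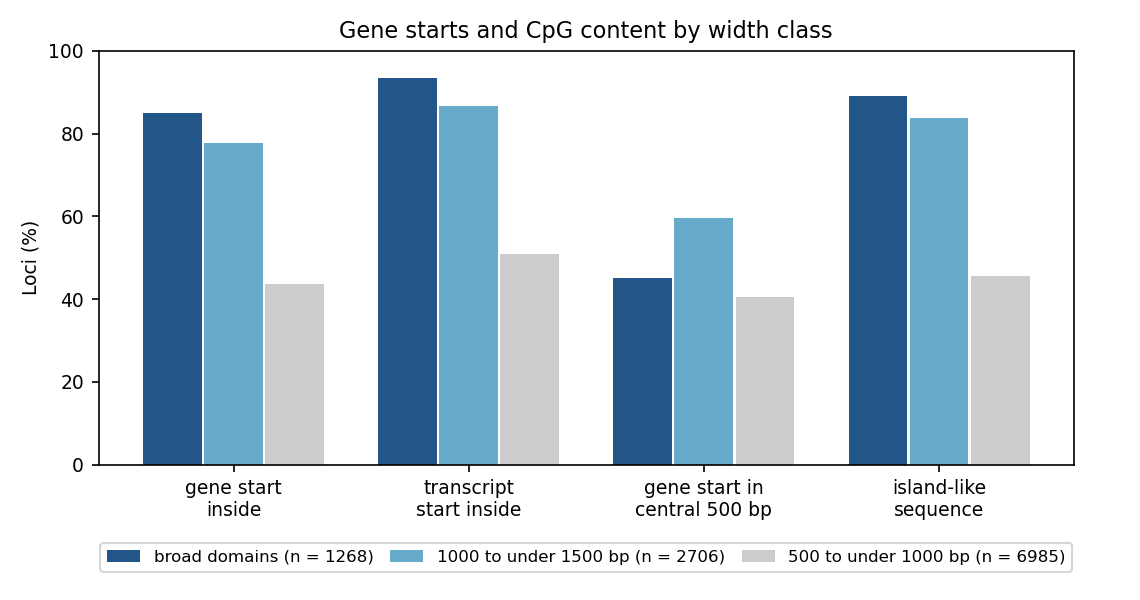
Share of loci (y axis, %) that hold a gene start, a coding transcript start, a gene start in their central 500 bp, or island-like sequence, for the broad domains (dark blue) and loci of 1000 to under 1500 bp (light blue) and 500 to under 1000 bp (grey). The domains lead in 3 of the 4 shares and not in the central 500 bp, where they stand at 45.03%.

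The domains reached further downstream of the gene start than upstream of it. The gene start is the upstream end of the gene model, so other transcript starts of the gene can lie only downstream of it. The part of such starts in this direction was not tested. Of 869 domains with exactly 1 gene start, the stretch downstream of the start had a median of 1130 bp and the stretch upstream 722 bp, and 76.1% were longer downstream. In replicate 2 alone, the run holding the start reached 817 bp downstream and 552 bp upstream, with 66.6% longer downstream over 839 genes. Of the narrower loci, 78.2% of the mid-width and 76.6% of the narrow ones were longer downstream, and in replicate 2 alone 71.9% and 63.7%. Tgif1 was the most one-sided of the 20 widest, with 4903 bp downstream and 340 bp upstream, and its domain held 6 coding transcript starts. Zfp36l1 went the other way, with 1869 bp downstream and 3451 bp upstream, and its domain held 4 coding transcript starts. A further 209 domains held several gene starts, and in 124 of them neighbouring starts pointed apart. Most starts were in the domain of Bola1 and the histone genes Hist2h2ab, Hist2h2ac and Hist2h2be, which had 4 (2521 and 1523 bp). Domains with 3 starts each included those of Hdlbp with a pair of gene models named Sept2, of Zfp524, Fiz1 and Gm44973, of Hook3, Rnf170 and Gm45692, and of U2af1l4, Gm49396 and Psenen.

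In 108 domains coding transcripts began but the 5 prime end of the gene model lay outside. These alternative starts were a median of 9419 bp from that end, and 52 genes had them over 10 kb away. Rbpj, the DNA-binding effector of Notch signalling, had such a domain 124062 bp inside the gene model (3261 and 1097 bp). Runx1, a core T-lineage factor, had one 128821 bp inside (2060 and 1790 bp). Arid1a, a subunit of the SWI/SNF remodelling complex, had one 3158 bp inside (3556 and 1403 bp), and Nsd1, a histone H3 methyltransferase gene, one 953 bp inside (2938 and 2192 bp). Elf2, an ETS-family factor gene, had one 63088 bp inside (2038 and 1914 bp).

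Most domains had the base composition of CpG islands. The median ratio of observed to expected CpG pairs was 0.789 in the domains, against 0.761 in the mid-width loci and 0.559 in the narrow loci, and the median GC content was 62.5%, 61.0% and 56.3%. A GC content of at least 50% with a ratio of at least 0.6 was found in 89.0% of the domains, 83.9% of the mid-width loci and 45.6% of the narrow loci. In 500 bp centred on the start of single-start loci, the ratio was 0.882 in the domains, 0.858 and 0.779 in the narrower classes and 0.601 at all 20807 autosomal coding gene starts. The domains that held a coding start had a ratio of 0.796 and the 82 without one had 0.436.

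Among all autosomal protein-coding genes, 1294 of 20807 (6.22%) had their start in a broad domain, and among the 9478 whose start lay in a run of both libraries the share was 13.2%. The gene lists compared with these shares were chosen with earlier results of these data known, so their counts are descriptive. Factors of the T lineage stood above these shares, with 10 of 28 (35.7%), or 52.6% of the 19 with an open start. Satb1 was followed by Foxo1, a forkhead factor of T-cell homeostasis, at 3096 and 2087 bp. Gfi1, a zinc-finger repressor, had 3541 and 1119 bp, and Foxp1, a forkhead factor of naive T cells, had 3429 and 1166 bp. Tox, Lef1, Tcf12, Cbfb, Tcf3 and Elf1 were the other 6, of which Tox had 3017 and 1571 bp and Lef1 3251 and 1004 bp at the gene start. Myb, needed for early thymocyte growth, had 1331 and 1230 bp at its start and so fell outside the rule, as did Sox4 with 1145 and 1018 bp. Tcf7, which encodes TCF-1, had 2535 and 91 bp at its start.

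Genes induced by signals had the same count, 10 of 28 (35.7%), or 41.7% of the 24 with an open start. After Zfp36l1, the widest were Jun, an AP-1 subunit, at 3673 and 2125 bp, Pim1, a serine/threonine kinase gene, at 4045 and 1535 bp, and Myc, the growth regulator, at 4235 and 1009 bp. In replicate 2 the runs that held the starts of Egr2, Egr1, Btg2 and Myc measured 339, 398, 855 and 901 bp, and other runs inside the same domain met the rule. Klf6 had 1347 and 1167 bp at its start. Zfp36l2, a paralogue of Zfp36l1, had 1495 and 1246 bp at its start, just under the minimum.

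Survival, cell-cycle and housekeeping genes were also above the share of all genes. Survival and NF-kB genes had 4 of 16 (25.0%, or 28.6% of 14 open starts): Bcl2l1, which encodes the death inhibitor BCL-XL, at 2639 and 1628 bp, Bcl2l11, which encodes the death inducer BIM, at 2898 and 1038 bp, Tnfaip3, which encodes the NF-kB feedback enzyme A20, at 1591 and 1516 bp, and Rel, an NF-kB subunit gene, at 1629 and 1153 bp. Cell-cycle genes had 3 of 16 (18.8%, or 21.4% of 14 open starts), namely Cdk6, Cdkn1b, an inhibitor of cyclin-dependent kinases, at 2834 and 1567 bp, and Ccne1, the cyclin E1 gene, at 2049 and 1053 bp. Housekeeping genes had 4 of 14 (28.6%, or 33.3% of 12 open starts), led by Hsp90ab1, a chaperone gene, at 2090 and 1951 bp. Actb, the cytoplasmic actin gene, had 1955 and 1776 bp. The lists are small, and no set test was made.

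Other lists were nearer to the shares of all genes, below them or at 0. Genes of V(D)J recombination had 2 of 15 (13.3%, or 15.4% of 13 open starts), Hmgb1 and Prkdc, both in domains that hold a second gene start (Uspl1 and Mcm4). Rag2, a recombinase gene, had 3304 and 368 bp at its start. Of 25 T-cell receptor and signalling genes, only Cd8b1 was in a domain (4.0%), although 20 had an open start. Cd3e, a chain of the CD3 complex, had 957 and 812 bp and Prkcq, a kinase gene of the synapse, had 1034 and 596 bp. Of the members outside a domain, only Cd2, Thy1, Rhoh, Lat and Cd27 reached 1500 bp at the start in replicate 1. Their widths were 2616 and 210, 1863 and 376, 1644 and 721, 1567 and 820, and 1528 and 853 bp, so replicate 2 left them out. Ribosomal protein genes had 1 of 72 (1.39%), with 66 open starts, and Rpl7 was in a domain it shares with Rdh10 (2638 and 1893 bp). Replication-dependent histone genes had 8 of 67 (11.9%, or 14.0% of 57 open starts) in 5 domains. The muscle list had 1 of 16 (33.3% of only 3 open starts), Mylpf, in a domain that also holds the start of Tbc1d10b. No member was in a domain in 8 lists, which also had few open starts: developmental regulators (0 of 40, 2 open), thymic epithelium (0 of 20, 5 open), myeloid and dendritic cells (0 of 18, 4 open), stroma and endothelium (0 of 17, 3 open), liver (0 of 16, 0 open), B cells (0 of 15, 5 open), neurons (0 of 15, 2 open) and erythroid cells (0 of 12, 2 open). With so few open starts, a count of 0 says little beside the 13.2% of all open starts.

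**Figure D4:**
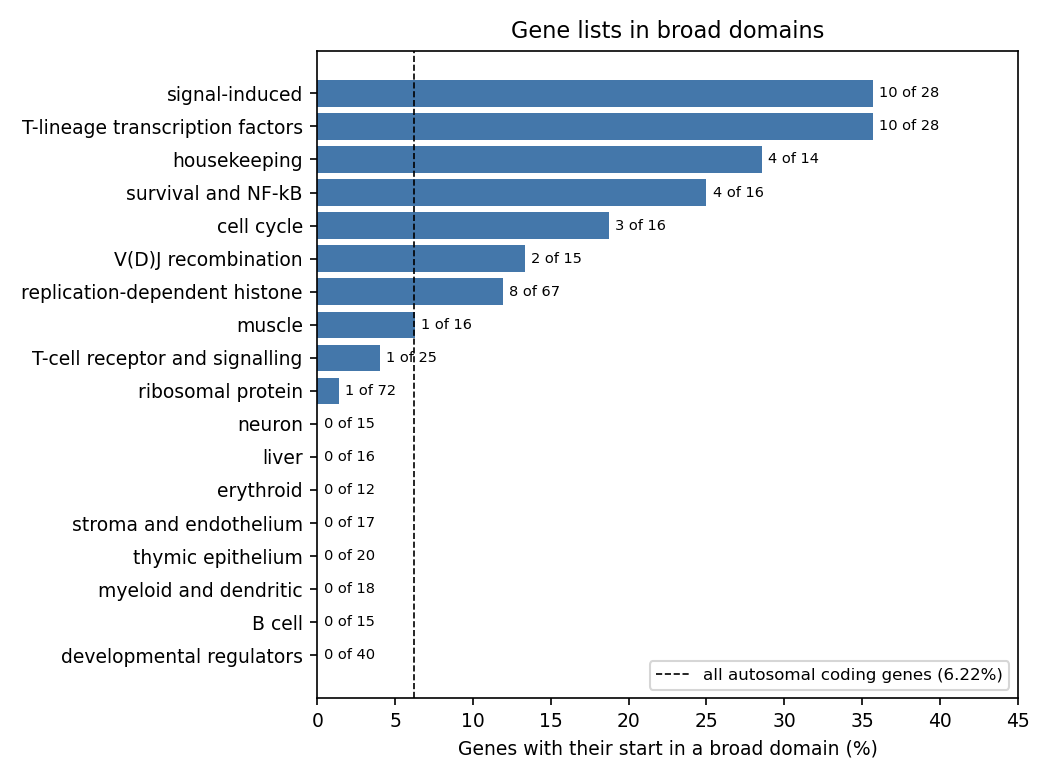
Share of each gene list (x axis, %) with the gene start in a broad domain, with counts beside the bars; the dashed line is the share of all autosomal protein-coding genes, 6.22%. Signal-induced genes and T-lineage transcription factors lead with 10 of 28 each, and 8 lists are at 0. The lists were chosen with earlier results of these data known.

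A further 9 gene families were counted because a member had been seen in a wide domain, so their counts are descriptive and beside the 6.22% of all genes they say nothing of families in general. The KMT2 family of SET-domain genes had 4 of 5 members in domains (Kmt2a, Kmt2b, Kmt2c and Kmt2e), with replicate 1 widths of 1932 to 3220 bp and replicate 2 widths of 1447 to 3094 bp. The antiproliferative BTG and TOB genes had 4 of 6 (Btg1, Btg2, Btg3 and Tob1). The KLF family had 4 of 16 (Klf7, Klf10, Klf11 and Klf13), the MEX3 family 2 of 4, the ING family 2 of 5 and the ZFP36 family 1 of 3. The FOX family had 5 of 40 (12.5%) and the dual-specificity phosphatase (DUSP) family 2 of 22 (9.09%). Members were counted by the 5 prime end of the gene model. Genes with only an internal start in a domain were not counted, such as Dusp1 (2251 and 1805 bp) and Cdk19 (1858 and 1762 bp). Cyclin-dependent kinase genes had 5 of 18 (Cdk6, Cdk9, Cdk12, Cdk13 and Cdk17), and Cdk13, which phosphorylates RNA polymerase II, had 2830 and 2741 bp.

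The 82 domains that held no coding gene or transcript start were as wide as the rest in replicate 1, with medians of 1875 bp against 1856 bp, and narrower in replicate 2, with 1235.5 bp against 1378 bp. Of these, 22 overlapped the body of a coding gene, 23 held the start of a long noncoding RNA and 57 were more than 10 kb from any coding gene start. The widest by mean was chr17:84160003-84164549, 4547 and 1757 bp, which lies beyond the 3 prime end of Zfp36l2 and lies 23398 bp from its start. A second one, chr17:84180286-84183834, 3549 and 1836 bp, ended 96 bp short of the gene body of Zfp36l2.

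Between Ets2, an ETS-family factor gene, and Psmg1, a proteasome assembly gene, 4 such domains followed each other over 11251 bp (chr16:95859989-95871239), with gaps of 98, 21 and 153 bp. The widest of the 4 had 4591 and 1473 bp, and the others had 2995 and 1547 bp, 1758 and 1070 bp, and 1635 and 1357 bp. The row began 138937 bp past the end of Ets2. Their CpG ratios, at 0.260, 0.0965, 0.228 and 0.0836 in order along the chromosome, were far under the 0.796 of domains with a start. The first of them had 1 footprint in replicate 1 and 5 in replicate 2, the fewest per kb of all domains by the mean of both libraries.

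A further 5 domains without a start are given by their distance to a gene with a known role in T cells. The domain chr14:54226594-54229702 (3109 and 1115 bp) lay 2387 bp past the end of Trac, the T-cell receptor alpha constant gene, on the side of Dad1. The domain chr12:107123149-107126709 (3561 and 1187 bp) lay 876893 bp from the start of Bcl11b, a factor of T-cell commitment, and the nearest coding gene start, that of 3110018I06Rik, was 361923 bp away. The domain chr6:71332160-71334317 (2158 and 1462 bp) was inside Cd8b1, 9372 bp past its start. The domain chr11:52274469-52276569 (2101 and 1532 bp) was inside Tcf7, 6445 bp past its start, and chr2:128152374-128154020 (1647 and 1202 bp) was inside Bcl2l11, 26336 bp past its start. All 5 had CpG ratios of 0.220 to 0.392. No measurement here ties any of them to the gene named.

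Footprints were about as dense in the domains as elsewhere in wide open DNA. The domains held 23560 footprints in replicate 1 and 18219 in replicate 2, which were 6.63% and 9.16% of all autosomal footprints of those libraries. The median per domain was 9.13 footprints per kb in replicate 1 and 7.01 in replicate 2, against 9.19 and 7.25 in the mid-width loci and 9.47 and 7.67 in the narrow loci. These gaps between classes are smaller than the gap between the libraries. Footprints came from the same cuts as the runs, so they are not independent of how domains were chosen. Of the footprints in domains, 60.0% in replicate 1 and 80.0% in replicate 2 overlapped one of the other library, and footprint density had a Spearman rho of 0.63 between libraries over the 1268 domains. Footprints took up 15.3% of domain bases in replicate 1 and 11.6% in replicate 2.

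Density was uneven along a domain. In the single-start domains it was highest in the 100 bp upstream of the gene start, with 19.1 per kb in replicate 1 and 17.7 in replicate 2. At 500 to 600 bp downstream it was 6.84 and 4.61 per kb, against 4.13 and 2.5 in the mid-width loci and 1.97 and 1.57 in the narrow loci. At 1000 to 1100 bp downstream it was still 4.94 and 3.07 per kb in the domains. At 500 to 600 bp, 98.3% of the bases lay inside the domains, 84.3% inside the mid-width loci and 30.9% inside the narrow loci. The classes were set by width, so this bin lies nearer the edges of the narrower loci. The part of such edges in these densities was not tested. The upstream peak was much the same in all classes, at 19.9 and 18.8 per kb in the mid-width loci and 19.4 and 18.1 in the narrow loci. In the 100 bp downstream of the start the domains were lowest, with 17.4 and 15.2 per kb, against 19.3 and 17.1 in the mid-width loci and 18.5 and 16.1 in the narrow loci.

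**Figure D5:**
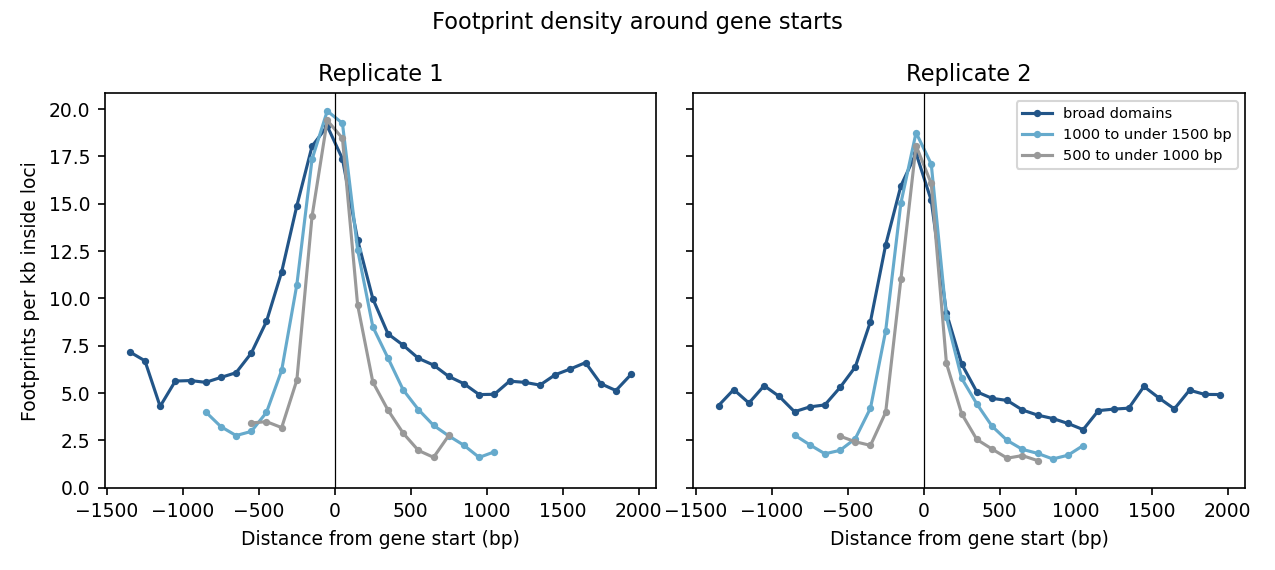
Footprints per kb of locus (y axis) in 100 bp bins by distance from the gene start (x axis, bp, downstream positive) in single-start loci of replicate 1 (left) and replicate 2 (right), for bins with at least 5 kb inside loci. All 3 classes peak just upstream of the start, and more than 100 bp from it the broad domains lie above the narrower classes on both flanks. The classes were set by width, so bins on the flanks lie nearer the edges of the narrower loci.

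Domains with the most footprints per kb were those of Tbl2 (15.3 in replicate 1 and 14.7 in replicate 2), Rnf5 and Agpat1 (16.5 and 13.4), the internal Nr3c1 starts (15.4 and 14.5), the domain near Rhog (15.2 and 14.5) and Mon1b (15.7 and 13.8). After the domain between Ets2 and Psmg1, those with the fewest were Dcaf8 (2.66 and 4.0), Trp53bp2 (4.53 and 2.52), Rbm26 (3.91 and 3.26) and Cd8b1 (3.21 and 4.05). The widest domain of all was thus among the 5 poorest in footprints per kb, with 19 footprints in replicate 1 and 24 in replicate 2 and a CpG ratio of 0.25.

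The letters in the middle of the domains were compared with windows of the same length, both strands counted, with no test. GGGCGG was found in the central 500 bp of 86.3% of the domains, against 82.0% and 55.9% of the narrower classes and 53.5% of 500 bp windows at all gene starts. TGCGCA (NRF1) was in 14.0% of the domains, against 21.5% and 14.8% of the narrower classes and 12.7% of all starts. CCGGAA (ETS) was in 28.6%, against 41.5%, 33.1% and 24.7%. TGTGGT (RUNX) was in 13.9%, against 16.7%, 30.9% and 23.3%, and CTTTGA (TCF/LEF) in 10.6%, against 14.0%, 24.4% and 21.7%. The GC content of the classes also differed, at 62.5%, 61.0% and 56.3%, and its part in these shares was not tested. A CTCF core match was in 0.473% of the domains, against 0.739% and 2.23% of the narrower classes.

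Windows of 500 bp centred on the gene start, a comparison added after the first had been seen, gave the same order of the 3 classes for 10 of 13 motifs; ETS, YY1 and the E-box CAGCTG differed. GGGCGG was in 90.6% of 869 single-start domains, against 86.0% and 76.7% in the narrower classes. TGCGCA was in 15.7%, against 23.8% and 21.9%, and CCGGAA in 29.6%, against 42.5% and 45.4%. Over whole domains GGGCGG occurred 3.91 times per kb. Of these matches, 43.9% lay in a replicate 1 footprint and 37.0% in a replicate 2 footprint. For TGACGT, the CRE core, the shares were 46.8% and 45.9% of 703 matches, for TGTGGT 8.28% and 6.54% of 1039, and for the AP-1 letters TGANTCA 2.02% and 2.89% of 346. Of only 39 CTCF core matches, 87.2% and 66.7% were in footprints. Footprints covered 15.3% and 11.6% of domain bases, so the RUNX and AP-1 shares were under the share of bases covered. The same held for GATA (4.13% and 2.61%) and for the E-boxes CAGCTG (9.28% and 6.16%) and CACCTG (8.07% and 5.62%). For CTTTGA the shares were 14.3% and 13.7%, under the share of bases in replicate 1 and over it in replicate 2. The share of bases is a mean over whole domains, in which footprints were densest near gene starts. The part of motif position in these shares was not tested.

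Deposited peaks split the domains into parts. A domain held a median of 3 peaks in both libraries, with up to 11 in replicate 1 and 10 in replicate 2. The Cd8b1 domain had 11 and 9, and the Tgif1 domain had 9 and 10. The deposited density of a peak is the authors' value and was ranked within each library. The densest peak of a domain was in the densest 10% of its library in 89.98% of domains in replicate 1 and 74.8% in replicate 2, against 85.4% and 64.5% of the mid-width loci and 52.6% and 30.8% of the narrow loci. Mid-width loci held a median of 2 peaks and narrow loci 1 in both libraries. Wider loci thus had more peaks to take the densest from, and the part of this was not tested. Peaks and runs came from the same libraries, so these shares are not independent of how domains were chosen.

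The domains were spread over all 19 autosomes, from 0.328 per Mb on chromosome 14 to 0.967 per Mb on chromosome 11. Bases masked as repeats made up a median of 7.46% of a domain, against 5.59% of a mid-width locus and 7.0% of a narrow one. Only 4 domains had more than 20% of their 31-base words at several places in the reference: the domain near Ccr1, that of Smarca5, that of Cdk6 and that near Cdk2ap1.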

How the data were processed

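DNase-seq maps DNA that the nuclease DNase I can cut. Per the labels, each of 2 thymus samples is 1 biological replicate of 1 group, mapped to mm10. Per the notes deposited beside the files, every list came from 1 library's filtered alignment, without pooling. Neither aligner nor callers are given in the sources used here. The deposited rate file holds, for each stretch of bases, a q-value (an adjusted p-value) under 0.05, and these values define the domains. The deposited peaks carry a signal density whose scaling is not stated, used only for ranks within a library. The deposited footprints carry the same value, 0.01, on every line, so only positions were used. No read depth is given, so intervals and floors that need it are left out.

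Stretches at 0.001 or less were merged when they touched or overlapped. Overlap meant 1 bp or more, and overlapping kept runs of both libraries were joined into 1 domain. The width given for a library is its widest run in the domain. Narrower loci needed a partner run of at least 2/3 of the lower bound of their class and touched no wider run. Footprints and peaks were counted by midpoint. Gene starts were the 5 prime ends of protein-coding genes in GENCODE release M21 (GRCm38, the build of mm10). The members and the gene lists were chosen with earlier results of these data known. No tests were made, because the members were selected on these values and there is 1 group of 2 libraries. Domains were named by rule: the 20 widest, up to 4 members of each gene list and 2 list members in narrower loci, the 5 widest away from gene starts, the 5 with most and fewest footprints per kb, the 5 with most gene starts, the 5 that differ most between libraries, and runs nearest 1500 bp. List members with a wide run in replicate 1 only, families, alternative starts and domains inside T-cell genes were named after their values were seen. Analyses used Python 3.11.15 with numpy 2.4.6, pandas 2.3.3, scipy 1.17.1 and matplotlib 3.10.9. The code that selects runs and joins them into domains was tested on simulated runs. From the same real runs it gave the same domains as bedtools 2.31.1. The merging of listed bases into runs was not tested in this way. Alternatives varied the false discovery rate, the merging distance, the width, the overlap, the library, the kind of start and the footprints counted.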

Additional observations from a re-analysis of the deposited data

Results flagged for a closer look

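The width rule was applied to autosomes, and chromosome X lay outside it. Applied there in the same way, it found 32 loci, of which 23 held the start of a coding gene; among these genes were Kdm6a, a histone demethylase gene, Bcor, a corepressor gene, and Ddx3x, an RNA helicase gene. On chromosome Y it found 0. These loci enter none of the counts above.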

How the results depend on the processing

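The number of domains was 1268 and moved most with width and library: 471 with a minimum of 2000 bp, and 445 to 2228 with 1 library alone. The settings of 0.0005 and 0.01 for the false discovery rate gave 1146 and 1876, merging over 50 bp gave 1456, and asking for 50% overlap gave 1268. The median width was 2319 bp at the 2000 bp minimum and 1737 to 1795 bp with 1 library alone, against 1861.5 bp. The share with a gene start was 76.5% to 81.8% with 1 library alone and 93.4% with any transcript start, against 85.0%; under the other 6 settings it was 83.0% to 85.7%. The share of genes with a start in a domain was 2.25% at the 2000 bp minimum and 2.06% to 9.65% with 1 library alone, against 6.22%. Footprints per kb, as the median over domains of the mean of both libraries, were 5.53 when only those overlapping one of the other library counted, against 8.08. GGGCGG occurred 6.71 times per kb in 500 bp at gene starts and 6.19 in the central 500 bp, against 3.91 over whole domains. The median number of peaks was 4 at the 2000 bp minimum, against 3. The last comparisons, of GGGCGG and of peaks, were added after the data had been seen. The cause of these moves was not tested, except that fewer or narrower regions enter by construction. Of the 20 widest domains, 20 stayed under every setting but replicate 2 alone, which kept 17. The rate of 0.01, merging over 50 bp, the 2000 bp minimum and replicate 1 alone could not have dropped any. Each of the 20 was wider than 2000 bp in replicate 1. Domains led the loci of 1000 to under 1500 bp in gene starts at each false discovery rate and merging distance tried, and trailed them in the central 500 bp. No paired analysis was possible because there is only 1 group. The depth is unknown, and replicate 1 lists more runs, so a narrower run in replicate 2 does not show narrower open DNA.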
